A study of Mus musculus with 11 samples.

Results

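The adipogenic transcription factors described here are the nuclear receptors Pparg and Rxra, the CCAAT/enhancer-binding proteins Cebpa, Cebpb and Cebpd, the zinc finger factors Klf15 and Zfp423, the helix-loop-helix factor Ebf1 and the signal-dependent factor Stat5a. They were represented by 18 of the 45101 probe sets on the array, namely every probe set whose annotation gave exactly 1 gene symbol and that symbol was one of these 9, among 18193 genes so annotated. The annotation listed 5 probe sets for Ebf1, 3 for Rxra, 2 each for Cebpb, Cebpd and Stat5a, and 1 each for Pparg, Cebpa, Klf15 and Zfp423. All 18 had a mean intensity above the limit for dim probe sets and were tested.

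The arrays measured total RNA of 3T3-L1 cells, a mouse preadipocyte line that was differentiated into adipocytes in culture, in 4 groups of 11 arrays. Chronic insulin (CI, n = 2) was 10 nM insulin given in 4 additions over a day and the next morning. Tumour necrosis factor (TNF, n = 3) was 2 ng/ml of the cytokine TNFα for 4 days. Dexamethasone (DEX, n = 3), a synthetic glucocorticoid, was given at 20 nM for 8 days in 0.01% ethanol. The control (n = 3) is labelled as having no treatment, so whether it received the ethanol carrier of the DEX group is unclear. All groups are 1 cell line, which stands in for adipose tissue in the labels, and nothing says that the arrays of a group came from separate cultures. The p-values therefore rest on array-to-array spread that could be purely technical.

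Fat cell differentiation in this line runs as a cascade. Cebpb and Cebpd are induced early by the hormone mixture and switch on Pparg and Cebpa, which then activate each other and the genes of the mature adipocyte. PPARγ binds DNA as a partner of an RXR receptor, of which Rxra encodes the α form. Zfp423 and Ebf1 mark committed preadipocytes and act upstream of Pparg, Stat5a carries growth hormone and prolactin signals, and Klf15 is a late factor that also responds to hormones and nutrient state. Cebpb and Cebpd have another role in inflammation, where they drive acute-phase genes.

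Array medians lay between 124.5 and 129.5, and Spearman correlations within groups between 0.9961 and 0.9977. The small number of arrays and the spread between them limit the precision. The adipocyte markers Adipoq and Fabp4 averaged 20890 to 22828 and 21818 to 22995 in the 4 groups, near the highest intensities of the arrays (22501 to 25933). Of the markers of other cells, the preadipocyte and fibroblast genes were bright, with Vim between 13336 and 14891. Of 10 macrophage and leukocyte genes, Ptprc and Itgam lay under the limit for dim probe sets in their overall mean and the other 8 were tested. Lyz2 was the brightest of them in every group, with group means of 1494 to 2948. Cd68 (78.4 to 99.7) and Adgre1 (96.6 to 111.9) lay below the array medians, and the rest lay between these and Lyz2.

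**Figure D1:**
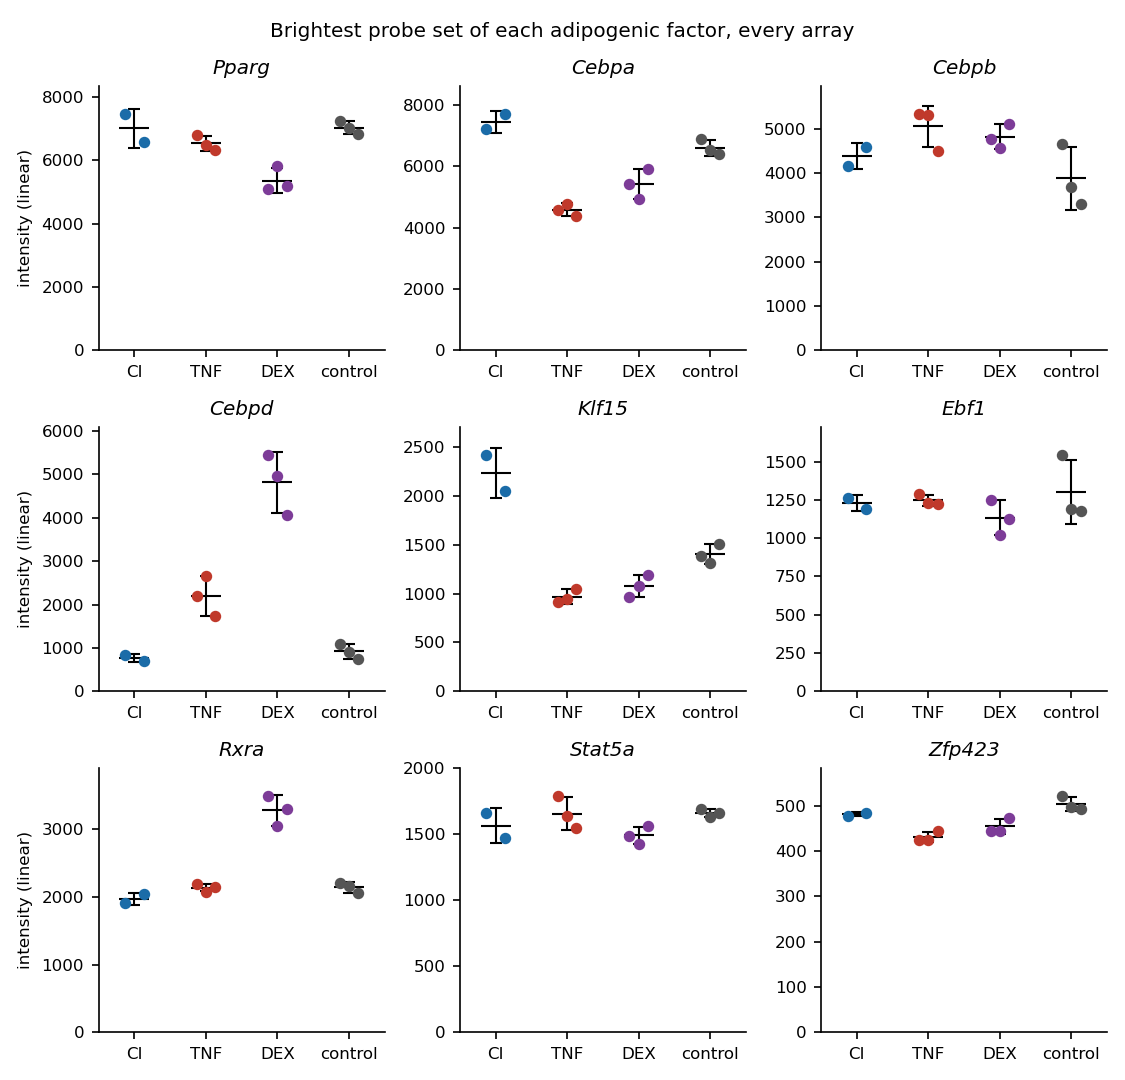
Linear intensity of the brightest probe set of each of the 9 genes, with a point for each array, a dash for the group mean and whiskers for the SD between arrays. The DEX arrays of Cebpd (4052 to 5437) and Rxra (3045 to 3489) stood above all others, the 2 CI arrays of Klf15 (2048 and 2412) stood above all others, and Pparg in DEX (5080 to 5808) lay below all others.

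In CI, 1 of the 18 probe sets rose and 0 fell by limma with Benjamini-Hochberg adjustment over all 33778 probe sets tested (2 and 0 at an unadjusted p under 0.05). In the same fit 6.41% of all probe sets rose and 6.45% fell. In TNF, 2 of the 18 rose and 3 fell, where 10.8% of all probe sets rose and 8.15% fell. In DEX, 5 rose and 3 fell, where 11.3% of all rose and 10.9% fell. The median log2 fold change of the 18 was -0.04 in CI, -0.00 in TNF and -0.14 in DEX, against 0.01, -0.02 and 0.02 over all probe sets. Counted by the brightest probe set of each gene, Klf15 was the gene that passed in CI, while Cebpb, Cebpd, Cebpa, Klf15 and Zfp423 passed in TNF and Cebpb, Cebpd, Rxra, Pparg, Cebpa and Klf15 passed in DEX. Treated and control arrays did not overlap for 5 of the 18 in CI, 5 in TNF and 10 in DEX. Over all probe sets tested this share was 42.2% in CI, 38.5% in TNF and 36.9% in DEX, so separation alone was common. The 3 comparisons share the control arrays. In RNA of a whole culture, fewer cells of a type and less RNA per cell cannot be told apart. Log2 fold changes are differences of mean log2(intensity + 16) and understate the change of dim probe sets.

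**Figure D2:**
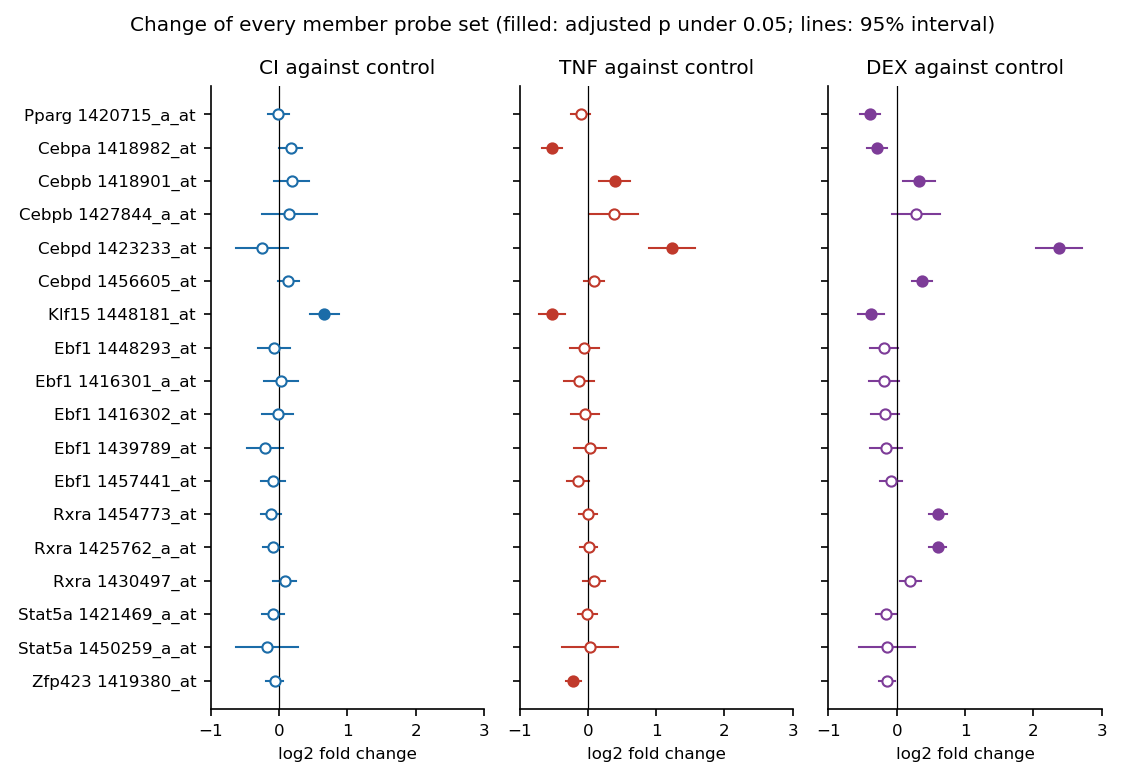
Log2 fold change against control of all 18 probe sets in CI, TNF and DEX, with filled points for those past an adjusted p of 0.05 and lines for 95% intervals. The brighter Cebpd probe set is the farthest from 0 in TNF (1.24) and DEX (2.37), and Klf15 is the filled point in CI (0.66).

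Cebpd showed the largest change of the 9 genes in DEX and in TNF. Its brighter probe set read 5437, 4961 and 4052 in DEX and 2206, 2667 and 1743 in TNF, against 1097, 919.2 and 752.3 in control. All DEX arrays lay above all TNF arrays, and these above all control arrays. The log2 fold change was 2.37 (SE 0.157, limma adjusted p = 8.03e-08) in DEX, a 5.17-fold rise, and 1.24 (SE 0.157, adjusted p = 8.82e-05) in TNF. Among the brightest probe sets of 15622 genes, 17 rose by more in DEX and 75 in TNF. In CI the 2 arrays read 836.2 and 698.9, within and below the control range, and the change did not pass (-0.25, 95% interval -0.63 to 0.13).

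The dimmer Cebpd probe set moved less. It read 248.2, 251.6 and 235.0 in DEX, 194.6, 221.5 and 182.4 in TNF, and 185.3, 189.5 and 182.7 in control. It rose in DEX by 0.37 (SE 0.0652, adjusted p = 0.00087), while its value in TNF was 0.09 (adjusted p = 0.364). The DEX arrays were again above the control arrays, whereas the TNF arrays overlapped them. The probe sets thus gave different sizes for the same gene, and averaging them gave 1.37 in DEX and 0.66 in TNF.

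Cebpb, which acts beside Cebpd early in the cascade, shifted less and with more spread. Its brighter probe set read 5320, 5315 and 4503 in TNF and 4772, 4560 and 5110 in DEX, against 4656, 3679 and 3292 in control. Control replicate 1 lay inside the TNF and DEX ranges, so the groups overlapped. The log2 fold change was 0.39 (SE 0.107, adjusted p = 0.0213) in TNF and 0.33 (SE 0.107, adjusted p = 0.0436) in DEX. Both calls depended on the setting. Without control replicate 3 the TNF value was 0.28 (adjusted p = 0.0948) and the DEX value 0.22 (adjusted p = 0.18), and without control replicate 1 they were 0.53 (adjusted p = 0.00141) and 0.46 (adjusted p = 0.00244). The TNF call was also lost without control replicate 2 (0.36, adjusted p = 0.0826), TNF replicate 1 (0.35, adjusted p = 0.0792) or TNF replicate 2 (0.35, adjusted p = 0.0809), and with every array kept when the probe sets of a gene were averaged (0.38, adjusted p = 0.0572). The DEX call was lost under 14 of 22 alternative settings, at log2 fold changes of 0.22 to 0.36. Among these, a pseudocount of 1 (0.33, adjusted p = 0.0504) and the fit without CI replicate 1 (0.33, adjusted p = 0.0519) left the size as it was and the p just past the threshold.

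The second Cebpb probe set followed the same arrays. It read 911.7, 998.1 and 715.9 in TNF and 761.8, 795.5 and 878.4 in DEX, against 912.4, 564.8 and 566.1 in control. It did not pass in TNF (0.38, adjusted p = 0.133) or DEX (0.28, adjusted p = 0.26), but it passed in both without control replicate 1 (0.60, adjusted p = 0.0078, and 0.51, adjusted p = 0.0167). In CI the Cebpb probe sets were at 0.19 and 0.15 (adjusted p = 0.382 and 0.688).

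**Figure D3:**
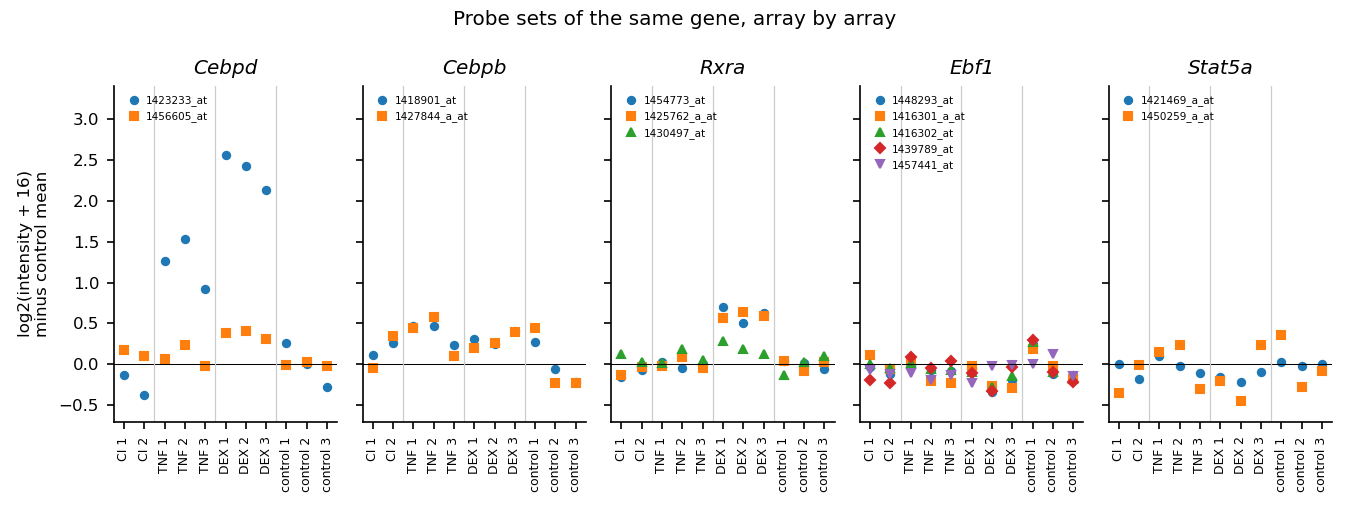
Log2(intensity + 16) minus the control mean for each probe set (colours) of the 5 genes with more than 1, array by array. The brighter Cebpd probe set moves much farther than the dimmer one, the 2 brighter Rxra probe sets overlap in DEX, and control replicate 1 stands above the other control arrays for Cebpb and for 4 of the 5 Ebf1 probe sets.

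Pparg, the receptor without which adipocytes do not form, fell in DEX. It read 5080, 5808 and 5175 in DEX, against 7239, 7017 and 6842 in control, so that all DEX arrays lay below all control arrays. The log2 fold change was -0.39 (SE 0.0667, adjusted p = 0.000619), so that its level fell by 23.9%. In TNF it read 6786, 6489 and 6328, also below each control array, but the difference did not pass (-0.11, 95% interval -0.25 to 0.04, adjusted p = 0.293). In CI it read 7450 and 6563, on both sides of the control range (-0.01, 95% interval -0.17 to 0.15). The single probe set does not tell the Pparg isoforms apart.

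Pparg has 3 starts in the RefSeq promoter table (build GRCm38.p6). The sequence around the third is shown because it is the Pparg window with matches to the 8-base pattern TTGCNNAA, whose ends are those of a C/EBP site, and C/EBP factors are the known activators of Pparg. Capitals mark matches to TTGCNNAA, read on either strand, and to the CCAAT box. The window spans chr6:115421816-115422115 on the plus strand, from 250 bases before the start to 50 bases from it.
Pparg start 3: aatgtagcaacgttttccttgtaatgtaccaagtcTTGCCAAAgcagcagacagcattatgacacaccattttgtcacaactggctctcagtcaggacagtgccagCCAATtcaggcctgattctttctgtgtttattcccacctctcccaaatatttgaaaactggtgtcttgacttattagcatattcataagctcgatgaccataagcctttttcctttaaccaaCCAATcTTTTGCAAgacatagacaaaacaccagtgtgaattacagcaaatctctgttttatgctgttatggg
The matches to TTGCNNAA begin 215 and 16 bases before the start, and those to CCAAT 144 and 22 bases before it, without overlap between motifs. TTGCNNAA occurs in 10.8% of the 32851 promoters of the table and CCAAT in 37.4%, so neither is rare among promoters. Of the 14 promoter windows of the genes described here, 2 held TTGCNNAA, the other being a Zfp423 window.

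Cebpa, the partner of Pparg in keeping the adipocyte state, fell in TNF and DEX. It read 4589, 4780 and 4366 in TNF and 5409, 4924 and 5895 in DEX, against 6901, 6512 and 6406 in control. The 3 groups did not overlap. The log2 fold change was -0.53 (SE 0.0688, adjusted p = 0.000114) in TNF and -0.29 (SE 0.0688, adjusted p = 0.00721) in DEX. In CI both arrays, at 7195 and 7689, lay above the control arrays, and the difference did not pass (0.17, adjusted p = 0.183).

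The Cebpa promoter is shown next as that of a gene that fell in both treatments in which Cebpd rose, with its TATA box in capitals, at chr7:35119043-35119342 on the plus strand.
Cebpa: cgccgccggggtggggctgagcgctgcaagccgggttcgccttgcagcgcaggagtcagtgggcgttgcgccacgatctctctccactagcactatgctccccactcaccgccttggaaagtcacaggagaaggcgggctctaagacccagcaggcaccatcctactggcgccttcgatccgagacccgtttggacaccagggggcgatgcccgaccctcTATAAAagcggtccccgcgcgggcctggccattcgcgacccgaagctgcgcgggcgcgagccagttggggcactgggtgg
The TATAAA match begins 30 bases before the start, and 13.6% of all promoters hold this motif on either strand. None of the other patterns searched matched the Cebpa window.

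Rxra rose in DEX on its brighter probe sets. The brightest read 3489, 3045 and 3306 in DEX, against 2202, 2167 and 2057 in control. The next brightest read 1153, 1211 and 1170 in DEX, against 797.6, 730.1 and 787.9 in control. The groups stood well apart on both, with log2 fold changes of 0.61 (SE 0.0606, adjusted p = 4.88e-06) and 0.60 (SE 0.0588, adjusted p = 4.25e-06). The third and dimmest read 89.4, 82.2 and 78.2 in DEX, against 63.0, 72.0 and 76.3 in control, and missed the threshold (0.20, adjusted p = 0.0616), although it passed without control replicate 3 (0.25, adjusted p = 0.0416). In TNF the brightest read 2187, 2081 and 2150, within the control range (-0.00, 95% interval -0.13 to 0.13). In CI it read 1915 and 2041, both below the control arrays (-0.11, adjusted p = 0.339).

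Klf15 passed in all 3 comparisons, with CI on one side of control and TNF and DEX on the other. It read 2412 and 2048 in CI, 908.5, 947.9 and 1050 in TNF, and 964.7, 1077 and 1192 in DEX, against 1385, 1312 and 1509 in control. No treated array overlapped the control arrays. The log2 fold change was 0.66 (SE 0.0989, adjusted p = 0.00071) in CI, -0.53 (SE 0.0884, adjusted p = 0.000865) in TNF and -0.38 (SE 0.0884, adjusted p = 0.00674) in DEX. Among the 15622 genes, 78 rose by more in CI and 172 fell by more in TNF.

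The Klf15 promoter is shown as that of the gene that changed in all 3 treatments, with its CCAAT box in capitals, at chr6:90462326-90462625 on the plus strand.
Klf15: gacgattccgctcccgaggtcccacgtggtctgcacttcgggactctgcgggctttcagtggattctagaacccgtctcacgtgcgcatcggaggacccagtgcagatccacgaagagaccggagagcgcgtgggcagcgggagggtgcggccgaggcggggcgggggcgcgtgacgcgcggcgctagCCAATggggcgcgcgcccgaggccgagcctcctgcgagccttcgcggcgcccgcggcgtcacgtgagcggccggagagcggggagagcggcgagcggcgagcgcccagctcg
The CCAAT match begins 62 bases before the start. Of the 9 genes 8 were in the promoter table, with 14 starts in all, and Cebpd was not among them. The C/EBP palindrome TTGCGCAA, the palindromic glucocorticoid response element, the PPAR and RXR direct repeat with a spacer of 1 base, the STAT pattern TTCNNNGAA and the NF-kappaB consensus site matched none of the 14 windows on either strand. They occur in 0.183%, 0.00913%, 0.0396%, 8.3% and 0.155% of all promoters, in that order, so the absence says only that these letters are not in the windows.

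Zfp423, a determinant of the preadipocyte fate, fell slightly in TNF. It read 424.9, 423.7 and 443.7 in TNF, against 520.3, 496.0 and 491.6 in control, without overlap. The log2 fold change was -0.22 (SE 0.052, adjusted p = 0.0106). In DEX, at 444.0, 444.2 and 473.6, all arrays also lay below the control arrays, but the difference missed the threshold (-0.14, adjusted p = 0.0667). It passed with a pseudocount of 64 (-0.13, adjusted p = 0.0412), when dim probe sets were removed up to the median (adjusted p = 0.047) and when tested per gene on the mean of all probe sets (adjusted p = 0.0259). In CI it read 477.5 and 483.7 (-0.06, 95% interval -0.19 to 0.06).

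Ebf1 did not pass in any treatment on any of its 5 probe sets, and none had an unadjusted p under 0.05 against control. The brightest read 1265 and 1191 in CI, 1288, 1228 and 1224 in TNF, and 1251, 1021 and 1128 in DEX, against 1541, 1188 and 1177 in control. All groups overlapped, with control replicate 1 above the other arrays. In DEX all 5 probe sets lay below control, from -0.19 to -0.08, with adjusted p from 0.183 to 0.483. Without control replicate 1 the brightest moved from -0.19 to -0.07 in DEX. It changed sign, still without passing, in CI (-0.07 with all arrays, 0.05 without it) and in TNF (-0.05 with all arrays, 0.08 without it).

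Stat5a did not pass either. Its brighter probe set read 1660.5 and 1472 in CI, 1788, 1637 and 1547 in TNF, and 1486, 1428 and 1560 in DEX, against 1689, 1633 and 1661 in control. The DEX arrays lay below the control arrays by 0.15 (95% interval -0.30 to -0.01, adjusted p = 0.116), and the other groups overlapped control. The second probe set varied widely between arrays of a group, from 328.6 to 538.8 in DEX and from 372.1 to 588.6 in control. Control replicate 1 was the highest of the control arrays in 14 of the 18 probe sets, whereas it was the highest in 33.9% of all probe sets tested.

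The treatments were also set against each other. They differed in length as well as agent, with TNF for 4 days, DEX for 8 days and CI over a day and the next morning. Differences of agent and of length cannot be told apart here. In TNF against CI, 1 probe set rose and 2 fell, where 15.5% of all rose and 14.5% fell. Klf15 was lower in TNF than in CI by 1.19 on the log2 scale (SE 0.0989, adjusted p = 1.05e-06), and 33 genes were lower by more. Cebpa was also lower in TNF (-0.70, adjusted p = 1.23e-05), and Cebpd higher (1.49, adjusted p = 2.21e-05). In DEX against CI, 4 rose and 3 fell, where 14.2% of all rose and 14.3% fell. Cebpd (2.62, adjusted p = 6.95e-08) and Rxra (0.72, adjusted p = 1.87e-06) were higher in DEX. Klf15 (-1.04, adjusted p = 2.19e-06), Cebpa (-0.46, adjusted p = 0.000366) and Pparg (-0.39, adjusted p = 0.00118) were lower in DEX.

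In DEX against TNF, 5 rose and 1 fell, where 14.6% of all rose and 14.8% fell. Cebpd was higher in DEX by 1.13 (SE 0.157, adjusted p = 8.48e-05) and Rxra by 0.61 (adjusted p = 3.56e-06), whereas Pparg was lower in DEX (-0.29, adjusted p = 0.00501). Cebpa was higher in DEX (0.24, adjusted p = 0.0193), a call that was lost without TNF replicate 3 (0.20, adjusted p = 0.0709) or DEX replicate 3 (0.17, adjusted p = 0.0887). Klf15 (0.15, 95% interval -0.04 to 0.34) and Cebpb (-0.06, 95% interval -0.30 to 0.17) did not pass.

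By group mean, the order from high to low for Cebpd was DEX, TNF, control, CI, and of the differences between neighbours only that between control and CI did not pass. For Cebpa and Klf15 it was CI, control, DEX, TNF. The difference between CI and control did not pass for Cebpa, nor that between DEX and TNF for Klf15. Rxra stood in the order DEX, control, TNF, CI, with DEX alone apart from its neighbour. Pparg stood in the order control, CI, TNF, DEX, with a difference between TNF and DEX. For Cebpb, Ebf1, Stat5a and Zfp423 no difference between neighbours passed.

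The genes nearest in pattern, by the root mean square difference of centred log2 values over the 11 arrays, were sought for the 4 genes with a called change over 0.5. For Cebpd they were Vdr (0.213), Clca3a1 (0.215) and Mt2 (0.290), among 15621 candidate genes. Vdr, the vitamin D receptor gene and another RXR partner, averaged 440 in TNF and 1306 in DEX, against 245 in control, with log2 fold changes of 0.80 and 2.34. For Klf15 they were Bpnt1 (0.0952), Tmcc3 (0.116) and Tubb4b (0.120), for Rxra Mcl1 (0.052), Mras (0.0608) and Ssh2 (0.0722), and for Cebpa Chchd3 (0.056), Sh3glb2 (0.0755) and Mrpl20 (0.0876). A likeness over 11 arrays in 4 groups mostly reflects the 4 group means.

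Lists of related genes were counted by the brightest probe set of each gene, leaving out the 9 factors themselves. Some genes, such as Lcn2, Mt2, Zbtb16, Stat5b, Pck1 and Angptl4, stand in more than 1 list. The lists were chosen with earlier results of these data known, so their counts are descriptive. Against control, 7.18% of all genes rose and 7.76% fell in CI, 12.6% rose and 9.54% fell in TNF, and 12.5% rose and 12.7% fell in DEX. Of 26 genes known as targets of PPARγ and C/EBPα, 15 fell and 1 rose in TNF (median -0.34, against -0.01 over all genes). Retn, an adipokine (-0.83), Dgat2, a triglyceride synthesis enzyme (-0.81), Cidec, a lipid droplet protein (-0.64) and Pcx, pyruvate carboxylase (-0.55) had the smallest adjusted p, from 2.04e-07 to 3.24e-05. Angptl4 was the gene that rose (0.50, adjusted p = 0.0163), named after its value was seen.

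In DEX 12 of the same 26 fell and 5 rose (median -0.17, against 0.02 over all genes). Aqp7, a glycerol channel (-0.98), Gpd1, a glycerol phosphate dehydrogenase (-0.90) and Pck1, an enzyme of glyceroneogenesis (-2.31) fell. Pdk4, a kinase that inhibits pyruvate dehydrogenase, rose by 2.70, with 3185 in DEX against 471 in control. In CI 4 rose and 3 fell, with the droplet protein gene Plin2 (0.59) and Dgat2 (0.45) higher and the lipase Pnpla2 (-0.57) and the droplet protein gene Plin4 (-0.40) lower.

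Acute-phase and other inflammatory genes, with metallothioneins, listed as targets of C/EBPβ and C/EBPδ were counted next. Of 14 tested, 9 rose and 2 fell in TNF (median 0.99), led by Saa3 (5.46), Hp, haptoglobin (1.54), the chemokine Ccl2 (2.82) and Lcn2 (4.63). In DEX 6 rose and 4 fell (median 0.16). Hp (1.44) and the metallothioneins Mt2 (2.06) and Mt1 (0.98) rose in DEX, while Orm1, an acid glycoprotein gene, fell (-1.0). In CI 2 rose and 2 fell (median -0.01): Il6 (1.11) and Lcn2 (1.69) rose, and Mt1 (-0.51) and Hp (-0.33) fell.

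Of 16 other genes known as targets of Klf15 or the glucocorticoid receptor, 13 rose and 2 fell in DEX (median 0.82). Fkbp5, a receptor cochaperone (2.71), Tsc22d3 (1.99), Mt2 and Zbtb16 (1.66) had the smallest adjusted p, from 1.14e-12 to 8.81e-08. Pck1 (-2.31) and Gpt (-0.80) were the 2 that fell. The list pools the targets of both regulators, so the count does not describe Klf15 targets alone. In TNF 4 rose and 5 fell, with Lcn2 and Mt2 higher and Lpin1 (-0.78) and Bcat2 (-0.70) lower. Bcat2, a branched-chain aminotransferase gene and a known Klf15 target in muscle, averaged 854 ± 9.6 in TNF and 1899 ± 149.0 in DEX, against 1401 ± 60.5 in control (SD, n = 3 each). In CI 2 rose and 2 fell: Dusp1 (1.16) and Lcn2 rose, and Prodh (-0.49) and Zbtb16 (-0.55) fell.

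**Figure D4:**
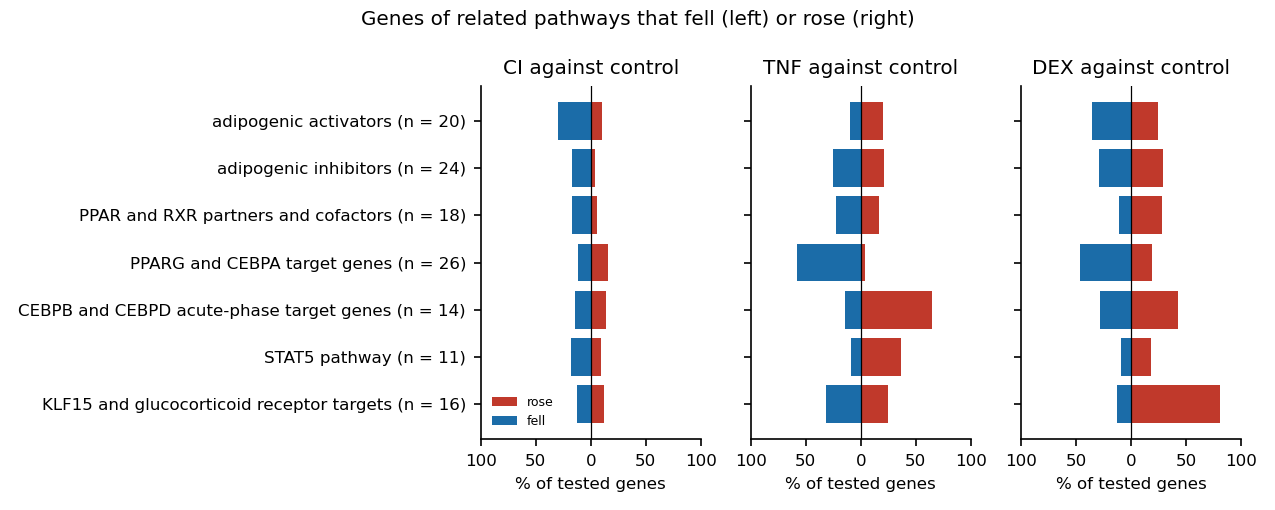
Share of the tested genes of each list that fell (left, blue) or rose (right, red) against control in CI, TNF and DEX, in percent, with the number tested beside each name. The longest bar to the left is that of PPARγ and C/EBPα targets in TNF (15 of 26). To the right the longest is the joint list of Klf15 and glucocorticoid receptor targets in DEX (13 of 16). The next is the list of acute-phase and other inflammatory targets of C/EBPβ and C/EBPδ in TNF (9 of 14).

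Of 18 partner and cofactor genes of PPAR and RXR receptors, 5 rose and 2 fell in DEX, 3 rose and 4 fell in TNF, and 1 rose and 3 fell in CI. Rxrg, the γ form of the receptor, fell where Rxra rose: it averaged 243 in DEX against 457 in control (-0.86, adjusted p = 1.39e-06). Rxrb, the β form, rose in DEX (0.40, adjusted p = 0.000836), as did the thyroid hormone receptor gene Thra (0.38). In TNF Rxrg (-0.51) and Ppargc1b, a coactivator (-0.33), fell and Vdr and the acetyltransferase Ep300 (0.24) rose. In CI Thra (-0.44), Ppargc1b (-0.35) and the corepressor Nrip1 (-0.28) fell, and Rxrg rose (0.30).

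Of 20 other activators of adipogenesis, 5 rose and 7 fell in DEX, 4 rose and 2 fell in TNF, and 2 rose and 6 fell in CI. In DEX Zbtb16 (1.66) and Klf9 (0.83) rose and Zfp467 (-1.52) and Nfib (-0.87) fell. In TNF Ebf2 (-0.45) and Nr1h3, the liver X receptor gene (-0.31), fell and Stat5b (0.24) and Srebf1 (0.28) rose. In CI Nr1h3 (0.37) and Ebf2 (0.40) rose and Ebf3 (-0.44) and Zbtb16 fell. Of 24 inhibitors, 7 rose and 7 fell in DEX, 5 rose and 6 fell in TNF, and 1 rose and 4 fell in CI. Dlk1, a membrane inhibitor of differentiation, fell in CI (-0.56) and in DEX, where it averaged 4943 against 9889 in control. Klf2 rose (0.93) and Twist1 fell (-0.80) in DEX. In CI Tcf7l2 (-0.53) and Nr2f2 (-0.36) fell and Trib3 rose (0.72). Wnt5a, a Wnt ligand, fell in DEX (-0.98) and TNF (-0.47), and the kinase-like gene Trib2 rose in TNF (1.00).

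Of 11 other genes of the STAT5 pathway, 4 rose and 1 fell in TNF, 2 rose and 1 fell in DEX, and 1 rose and 2 fell in CI. The kinase gene Jak2 (0.93) and the feedback inhibitor gene Socs3 (1.07) rose in TNF, and Cish, another feedback inhibitor, rose in DEX (0.68). Igf1, a growth hormone target, fell in DEX (-1.25) and TNF (-0.46). Socs2 rose in DEX (0.65) and fell in CI (-0.82). Bcl6 rose (0.42) and Stat5b fell (-0.23) in CI.

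Of 6 adipocyte markers 4 were measured, and their summed intensity was 65753 to 67973 in CI, 57199 to 58864 in TNF and 64346 to 69191 in DEX, against 67016 to 68049 in control. Adipoq and Fabp4 make up most of these sums and did not pass in any treatment. Both lay near the highest intensities of the arrays (22501 to 25933), where a change may not register in full. Steady sums therefore need not mean steady adipocyte RNA. Cidec (-0.64, adjusted p = 7.09e-06) and the lipase gene Lipe (-0.38, adjusted p = 0.0125) fell in TNF. In DEX Lipe fell (-0.29, adjusted p = 0.0389) and Cidec rose (0.22, adjusted p = 0.0185). In CI the values were -0.14 (adjusted p = 0.457) for Lipe and 0.20 (adjusted p = 0.0658) for Cidec. Markers of other cells also differed between groups. Of 9 preadipocyte and fibroblast markers tested, 4 rose and 0 fell in TNF, while 2 rose and 5 fell in DEX and 5 fell in CI. Acta2 had the smallest adjusted p in TNF (0.94). Thy1 (-0.26), Col1a1 (-0.21), Dlk1 (-0.16) and Col1a2 (-0.04) were lower in TNF without passing. The summed intensity of the 9 was 49041 to 51093 in CI, 64555 to 67052 in TNF and 41385 to 46959 in DEX, against 56057 to 63140 in control. Col1a2 and Vim were the largest parts of these sums in every group. Of 8 macrophage and leukocyte markers tested, 3 rose in TNF, 1 rose and 3 fell in DEX, and 1 rose and 2 fell in CI. Their sums were 3910 to 4228, 6085 to 6551 and 3322 to 3819 in these treatments in the order CI, TNF and DEX, against 4673 to 4850 in control. Lyz2 was the largest part of the macrophage and leukocyte sums, while Ptprc and Itgam were dim. Whether leukocytes were present in these cultures was not tested, nor was the part of other cells in the changes of the 9 factors.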

How the data were processed

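The labels describe biotin-labelled cRNA made from 3 µg of total RNA and hybridised to Affymetrix arrays. The authors deposited linear intensity values, 1 column per array and 0 columns of no sample. Background correction, summarisation and normalization are not given in the sources used here. Between arrays, the largest difference in a quartile of log2 values was 0.0765, under the limit of 0.1 for further normalization, so none was applied.

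Values were transformed as log2(intensity + 16). The 64 control probe sets and those with a mean under the 25th percentile (51.8) were left out, which left 33778. The platform annotation gave 34945 probe sets 1 gene symbol. Their gene identifiers matched RefSeq (GRCm38.p6) for 34754, and 0 symbols changed. A linear model with 4 group means was fitted to the 11 arrays for every probe set using limma (version 3.58.1, R version 4.3.3), with empirical Bayes moderation of the variance (7 residual and 6.54 prior degrees of freedom) and two-sided tests. A probe set passed when its p, adjusted by the Benjamini-Hochberg method, was under 0.05. Steps were tested on simulated data. Groups and replicate numbers came from sample titles. Errors beside intensities are SDs and beside log2 fold changes standard errors.

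The members and lists were chosen with earlier results of these data known. Text names all member probe sets, up to 4 genes per list and comparison with the smallest adjusted p, and the 3 nearest genes in pattern for members with a called change over 0.5. Promoter sequences are RefSeq's. Alternatives are given in the closing section.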

Additional observations from a re-analysis of the deposited data

How the results depend on the processing

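The 108 changes (18 probe sets in 6 comparisons) were recomputed under up to 22 alternative settings: pseudocounts of 1 and 64, other dim filters, quantile normalization, median centring, an intensity trend, gene-level values, fits of 2 groups, the replicate number as a block, and each array left out in turn. Of 2256 values, 2217 kept their side of the threshold, 25 lost it and 14 gained it. No called change turned its direction, and 54 of the 2256 values, none with a call, differed in sign from the value reported. The calls for Klf15, Pparg, Cebpa, Zfp423 and the brighter probe sets of Cebpd and Rxra against control held under all settings run. Those for Cebpb did not.

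Replicate numbers are shared between groups. Of 15 same-numbered pairs of arrays, 5 correlated above 0.1 in their deviations from group means (range -0.31 to 0.36). Of 11 arrays, 6 correlated best with their own number. The 2 CI arrays deviate from their mean by equal and opposite amounts, so their pairs carry no separate information. This check cannot decide whether the numbers are pairs, and they were not taken as pairs in the main fit. With the replicate block, 2 probe sets and 2 genes passed in CI instead of 1, the second being the brighter Cebpd probe set (-0.39, adjusted p = 0.0314). The same block added an Ebf1 probe set in DEX (-0.19, adjusted p = 0.0254). The cause was not tested. The other counts of called members stayed within 1.5 times of those reported under the settings run.

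Precision was limited by the number of arrays, and CI had only 2, so that leaving out 1 assumes that the other varies like the other groups. Dim probe sets, such as the third of Rxra, lie closer to background and are compressed by the pseudocount.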
